A study of Mus musculus with 4 samples.

Results

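The HoxC cluster holds 9 homeobox genes, Hoxc4, Hoxc5, Hoxc6, Hoxc8, Hoxc9, Hoxc10, Hoxc11, Hoxc12 and Hoxc13, which is 9 of the 21532 protein-coding genes that could be placed with a start site. Its accessible regions were taken as every peak overlapping chromosome 15 from 102820000 to 103140000 in mouse genome build mm10, which spans the cluster and about 100 kb on each side. This interval held 70 of the 99427 peaks of the E10.5 list and 14 of the 37548 peaks of the E11.5 list. The bounds fell between regions. At E10.5 the outermost regions inside ended at 103135987 and began at 102838281 (signal 3128 and 706), and the nearest ones outside lay at 103146282 to 103147614 and at 102807420 to 102807648 (signal 2022 and 429).

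The samples were limb cells of wild-type mouse embryos at stages E10.5 and E11.5 (days of embryonic development), with 2 replicates per stage and no treatment. The limbs were dissociated into single cells and fixed before tagging. The treatment protocol gives the earlier stage as E10, and the sample titles were followed. Accessible chromatin was tagged by ATAC-seq, in which the Tn5 transposase inserts adaptors into DNA not shielded by nucleosomes. Each deposited list joins both replicates of its stage, so there is no spread between replicates, the depth is unknown, and no test between stages could be made. Forelimbs and hindlimbs went into the same libraries. A link of the HoxC genes to the hindlimb therefore could not be checked here, and fewer cells with an accessible cluster and less accessibility per cell cannot be told apart.

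Hox genes encode transcription factors that give cells their position along the body axis, and within a cluster they lie in the order in which they are used along it. In the cluster Hoxc13 stands at the 5′ end and Hoxc4 at the 3′ end, and all 9 genes are read in the same direction. In the limbs Hoxc10 and Hoxc11 are known for transcripts in the hindlimb and not the forelimb, while the 5′ HoxD and HoxA genes pattern both. Hox proteins bind DNA together with cofactors, and Polycomb complexes keep Hox clusters silent where they are not used.

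At E10.5 the cluster was covered by regions over much of its length, and at E11.5 only short stretches of it were. From the Hoxc13 start to the Hoxc4 end (102921131 to 103036856, 116 kb) there were 48 regions at E10.5, which covered 66.1 kb or 57.1% of the interval. At E11.5 there were 10, which covered 8.49 kb or 7.34%. When chromosomes 1 to 19, X and Y were divided into 23512 consecutive windows of 116 kb, the median window was covered to 1.45% at E10.5, and 9 windows (0.0383%) were covered to more than the HoxC cluster. At E11.5 the median was 0.327%, and 237 windows (1.01%) exceeded the cluster. The cluster was placed by its genes and the windows by fixed steps, so these positions describe the lists only.

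**Figure D1:**
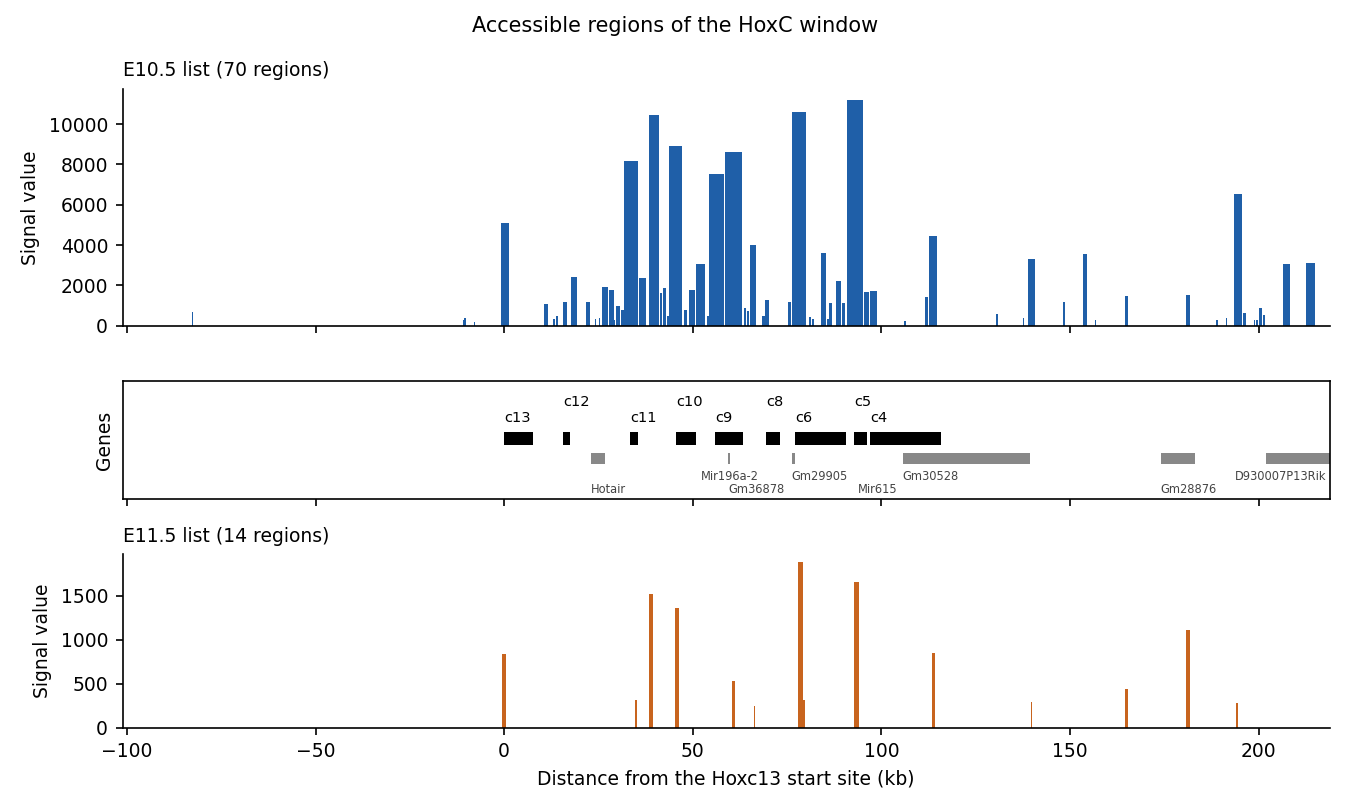
Signal value of each region (height) at its position and width (horizontal axis, distance in kb from the Hoxc13 start site), with the E10.5 list above, the E11.5 list below on its own vertical axis, HoxC genes in black and noncoding genes in grey. The 48 E10.5 regions over the cluster reach a signal of 11177 and the 10 E11.5 regions a signal of 1880.

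The regions within the cluster stood close together at E10.5. The median gap between neighbours was 325 bp, and 29 of 47 gaps were at most 500 bp. The longest uncovered stretches were 9.42 kb from 102922398 to 102931815, over the body of Hoxc13 and beyond it, 7.20 kb and 4.72 kb within Hoxc4, and 5.06 kb from 102991390 to 102996445, over the body of Hoxc8 and the interval behind it. At E11.5 the median gap was 11.3 kb. The longest gap, 34.1 kb from 102921738 to 102955827, took in Hoxc12, the noncoding gene Hotair and the start of Hoxc11.

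In the flanks there were fewer regions. Before Hoxc13, 101 kb held 5 E10.5 regions covering 2.27% and 1 E11.5 region, in both lists counting the region over the Hoxc13 start, which reaches into this flank. The other 4 had signals of 210 to 706. Behind Hoxc4, 103 kb held 18 E10.5 regions covering 16.0% and 4 E11.5 regions covering 2.50%. The side of Hoxc4 was thus covered further than the side of Hoxc13 in both lists.

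Each peak carries a signal value from the authors, which grows with the width of the peak, and it is used here only to rank peaks within their list. Whether its scale is the same in both lists is not known, so signals of the lists stand side by side without a ratio. The 70 E10.5 regions of the interval ran from 173 to 4462 bp in width, with a median of 774 bp against 624 bp in the whole list, and 11 (15.7%) were at least 2000 bp wide against 6.48% of the whole list. Their signal ran from 210 to 11177, with a median of 1143 against 838. By signal 9 of the 70 stood in the top 10% of the list and 0 in the top 1%. Divided by width, the picture differed, with a median of 1.28 per bp against 1.48 in the whole list and 1 region in the top 10%. By −log10 p, 4 regions were in the top 10%. At E10.5 the interval thus stood above the list median in width and total signal and below it in signal per bp.

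The 14 E11.5 regions were 225 to 1338 bp wide, with a median of 917 bp against 598 bp in the whole list. Their signal ran from 247 to 1880, with a median of 683 against 722, and 0 of the 14 stood in the top 10%. Their median signal per bp was 0.917, against 1.47 in the whole list.

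**Figure D2:**
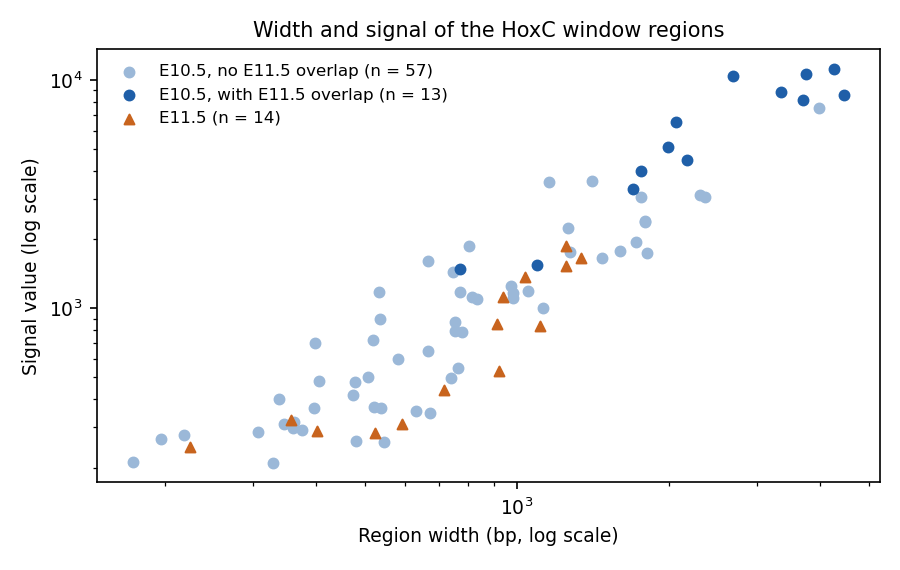
Width (horizontal, bp, log scale) and signal value (vertical, log scale) of the 70 E10.5 and 14 E11.5 regions, each point 1 region. E10.5 regions that overlap an E11.5 region have signals from 1480 to 11177, and 8 of the 9 regions in the top 10% of the list are among them.

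The most 5′ gene, Hoxc13 (102921131 to 102928814), known for its role in hair and nail, had 1 region in each list, both over the start site. The E10.5 region at 102920406 to 102922397 had a signal of 5083, ranked 9462 of 99356. The E11.5 region at 102920625 to 102921737 had a signal of 837, ranked 17323 of 37413. Behind these regions the body of the gene was uncovered in both lists.

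Hoxc12 (102936826 to 102938609), a posterior gene, had 1 E10.5 region over the start site at 102936712 to 102937763, with a signal of 1194. The nearest E11.5 region lay 15089 bp from that start. The interval from Hoxc12 to Hoxc11, 15916 bp long, was 63.7% covered at E10.5 by 10 regions and uncovered at E11.5. It holds Hotair (102944062 to 102947946, on the opposite strand), a long noncoding RNA. Its start lay in an E10.5 region at 102947049 to 102948770 (signal 1944), and the nearest E11.5 region was 7882 bp away.

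Hoxc11 (102954526 to 102956701), a gene of the hindlimb and lower body axis, was covered nearly throughout at E10.5, to 97.9% of the span from 1 kb before its start to its end. A single region did this, at 102952941 to 102956635, with a signal of 8144. At E11.5 a region of 593 bp at 102955828 to 102956420 lay inside the gene, 1302 bp from the start, with a signal of 312.

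Between Hoxc11 and Hoxc10 lay the region with the highest −log10 p of the interval at E10.5, 11.6, and the highest signal per bp, 3.89. It ran from 102959409 to 102962095 between the genes, 5264 bp behind the Hoxc11 start at its summit, with a signal of 10451 (rank 1651). An E11.5 region at 102959474 to 102960723 lay inside it, with a signal of 1525 (rank 12427). It is the strongest E11.5 region of the cluster that touches no gene.

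Hoxc10 (102966796 to 102971898), whose paralogs Hoxa10 and Hoxd10 pattern the upper leg with it, had 3 E10.5 regions covering 79.4% of its span. The one over the start, at 102964944 to 102968287, had a signal of 8896 (−log10 p 10.9). Over the same start the E11.5 region ran from 102966328 to 102967364, and its signal was 1362. Its −log10 p of 5.83 was the highest of the 14. The summits of the pair were 83 bp apart. The other 2 E10.5 regions, in the body of the gene at 102968824 to 102969576 and 102970072 to 102971673, had signals of 792 and 1784 and no E11.5 overlap.

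Hoxc9 (102977032 to 102984444) was covered to 93.0% at E10.5 by 2 wide regions. Over the start site lay the region from 102975426 to 102979397, which had a signal of 7520 (rank 4274) but overlapped no E11.5 region. Among the 67269 E10.5 regions without an E11.5 overlap it ranked 65 by signal, the highest of the interval. This rank rests on its width of 3972 bp as well. In the whole E10.5 list the region stood in the top 34.9% by signal per bp (1.89) and the top 39.9% by −log10 p (6.10). Its summit lay 2002 bp behind the start. The other, at 102979727 to 102984188, is the widest of the interval with 4462 bp, had a signal of 8597, and lay over the second part of the gene. The E11.5 region of Hoxc9 (102981435 to 102982354, signal 529) sat inside this wider region, 4403 bp from the start site. At Hoxc9 the E11.5 list thus held a region in the gene and none at its start.

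Hoxc8 (102990539 to 102994275), a gene of the trunk and a known target of miR-196, had low signals beside those of Hoxc9 and Hoxc6. Its E10.5 start region at 102990414 to 102991389 had a signal of 1256 (rank 38020), and a second, at 102989545 to 102990285, had 495. The gene span was 36.2% covered at E10.5 and had no E11.5 region. The nearest E11.5 region, 225 bp wide with a signal of 247, ended 2825 bp before the start. It lay in an E10.5 region between Hoxc9 and Hoxc8 at 102986234 to 102987994 with a signal of 3985.

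Hoxc6 (102998226 to 103011882), which is used in the thoracic region, had the most regions over its span of the 9 genes, with 8 in the E10.5 list and 2 in the E11.5 list. With each region given to the nearest start instead, Hoxc4 came first, with 13 and 3 against 5 and 2 for Hoxc6, and with −log10 p of at least 5 Hoxc6 and Hoxc4 had 4 each at E10.5. The E10.5 region over its start, at 102997410 to 103001150, had a signal of 10595 (rank 1582). Both E11.5 regions lay inside that region. The larger, at 102998992 to 103000242, had a signal of 1880 (rank 10819), the highest of the 14, and began 766 bp behind the start site. A further E10.5 region within the gene, at 103005047 to 103006454, had a signal of 3607 and overlapped no E11.5 region. The other 6 had signals of 318 to 2234, likewise without overlap.

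Right before the Hoxc6 start, on the other strand, begins the long noncoding RNA gene Gm29905 (102997332 to 102998167). Its start is 59 bp from that of Hoxc6. The strong E10.5 region covered both starts, and its summit lay 1084 bp behind the Hoxc6 start. The bases before the Hoxc6 start that hold the Gm29905 start (chr15:102998118-102998225, plus strand, GRCm38.p6) come from the RefSeq promoter window of Gm29905. They are shown because all 108 lay in the E10.5 region and 0 in an E11.5 region:
Hoxc6 and Gm29905: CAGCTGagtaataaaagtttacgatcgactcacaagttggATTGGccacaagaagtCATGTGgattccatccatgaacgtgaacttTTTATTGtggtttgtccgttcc
Capitals mark motif matches. Motifs were searched on both strands of windows from 250 bases before to 50 after a start, and the share of all 32851 RefSeq windows that hold each is given as background. The stretch holds, in order, an E box (CANNTG, in 72.3% of windows), a CCAAT box (37.4%, on the other strand), a second E box and a match to the motif of posterior Hox proteins (TTTATNG, 10.9%). The shares are for windows of 300 bases, and the stretch shown has 108. Further on in the Gm29905 window, outside the stretch shown, lay another E box and a Pbx-Hox motif (TGATNNAT, 8.85%).

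Hoxc5 (103014008 to 103017429), used in the neck region, had the strongest E10.5 region of the interval, at 103011892 to 103016143, with a signal of 11177 (rank 1310, −log10 p 11.3). It covers the start site and the microRNA gene Mir615, which lies inside Hoxc5. The E11.5 region at 103013841 to 103015178 covers the same start and Mir615, with a signal of 1660 (rank 11786). With 1338 bp it is the widest of the E11.5 regions, and it covered 30.3% of the gene span, the highest share among the 9 genes at E11.5. A second E10.5 region, at 103016469 to 103017947 over the end of the gene, had a signal of 1652.

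Hoxc4 (103018097 to 103036856), the most 3′ gene, has an outer start just behind Hoxc5 and an inner one 16.3 kb further on. The outer start lay in an E10.5 region at 103018058 to 103019872 (signal 1746), and no E11.5 region came within 1 kb of it. The inner start, at 103034395, lay in an E10.5 region at 103033829 to 103036005 with a signal of 4469 (rank 11528). An E11.5 region at 103034551 to 103035464, with a signal of 849 (rank 17184), began 156 bp behind it. The other E10.5 regions in the gene had signals of 212 to 1435. The region over the end of Hoxc5 (1652) also came within 1 kb of the outer start. Of the 2 starts the inner one thus had the higher signal at E10.5 and the only nearby region at E11.5.

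Of the 9 HoxC genes, Hoxc4 had an entry in the RefSeq promoter table, for its inner start. The 250 bases before it (chr15:103034145-103034394, plus strand, GRCm38.p6) are shown because all of them lay in the E10.5 region and 0 in the E11.5 region that begins behind the start:
Hoxc4: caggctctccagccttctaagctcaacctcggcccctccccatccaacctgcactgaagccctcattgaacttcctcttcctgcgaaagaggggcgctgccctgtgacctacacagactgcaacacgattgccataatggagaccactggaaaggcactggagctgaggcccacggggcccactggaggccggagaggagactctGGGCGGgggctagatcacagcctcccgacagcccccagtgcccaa
Capitals mark its SP box (GGGCGG, in 35.7% of all windows), at position -45 from the start. A CCAAT box lay just behind the start, outside the stretch shown. Unlike the Hoxc6 stretch of 108 bases, this window of 300 bases held no E box and no match to the posterior Hox motif.

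**Figure D3:**
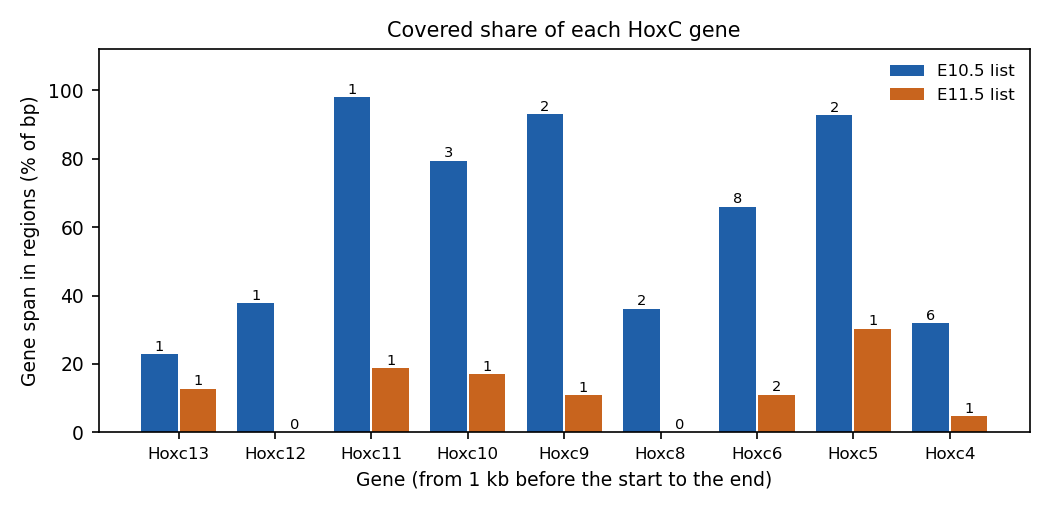
Share of each HoxC gene span in regions (vertical, percent of bp, from 1 kb before the start site to the gene end) in the E10.5 and E11.5 lists, with the number of regions above each bar. Hoxc11, Hoxc9 and Hoxc5 exceed 90% at E10.5, and Hoxc12 and Hoxc8 are at 0 at E11.5.

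Start sites showed the difference between the lists in a count. The 9 HoxC genes all had an E10.5 region within 1 kb of the outer start, and in each case it covered the start itself. Across all protein-coding genes 66.2% had one. The summits of the regions over HoxC starts lay 24 bp (Hoxc8) to 2002 bp (Hoxc9) from those starts. Regions covered 57.1% of the cluster at E10.5 with a median gap of 325 bp, so many points away from starts also lay near regions. Whether starts stood out from other points of the cluster was not tested. At E11.5 the 4 genes Hoxc13, Hoxc10, Hoxc6 and Hoxc5 had a region within 1 kb, against 59.9% of all genes. Of genes with an E10.5 region at the start, 89.9% also had an E11.5 region there, and of the 9 HoxC genes 4 did. The other 5, Hoxc12, Hoxc11, Hoxc9, Hoxc8 and Hoxc4, are not neighbours in 1 block but alternate with the 4 along the cluster. With a limit of 500 bp Hoxc6 dropped out at E11.5, with 2 kb Hoxc11 came in, and with the inner start Hoxc4 came in. The E10.5 count depended on the length of that list. Cut down to the length of the E11.5 list it held start regions for 7 HoxC genes by signal, 6 by signal per bp and 5 by −log10 p (Hoxc13, Hoxc11, Hoxc10, Hoxc6 and Hoxc5), against 59.6%, 55.6% and 57.7% of all genes, so by −log10 p the lists differed by Hoxc11 alone.

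Overlap between the lists was one-sided, and the E10.5 list had 2.66 times as many regions. All 14 E11.5 regions shared bases with E10.5 regions (100%, 95% Wilson interval 78.5 to 100%), against 91.8% of all E11.5 regions. All 14 also lay wholly inside an E10.5 region, against 72.8% of all. Under stricter rules the order turned round. Summits within 100 bp of an E10.5 summit were found for 35.7% of the 14, against 70.6% of all E11.5 regions. The closing section gives the other rules, which went the same way. Of the 70 E10.5 regions, 13 met an E11.5 region (18.6%, 11.2 to 29.2%), against 32.3% of all. Here 2 E11.5 regions shared the Hoxc6 start region, which is why 14 met 13. These intervals cover counting error only and take neighbouring regions as independent, which they may not be.

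The overlapping regions were the strong ones. The 13 had a median signal of 6540 (1480 to 11177) and a median width of 2177 bp, and the other 57 had a median signal of 792 (210 to 7520) and a median width of 741 bp. Since overlap depends on signal throughout the list, the regions were set beside all E10.5 regions of the same signal deciles. In the lowest 6 deciles (signal up to 1176) 0 of 38 regions of the interval overlapped, against 9.53% of the list. The Wilson interval for this 0 reaches 9.18%, and the limit of 3 counts in 38 is 7.89%. In deciles 7 to 9 (1177 to 4924) 5 of 23 did, or 21.7% (9.66 to 41.9%), against 56.4%. In the highest decile 8 of 9 did, or 88.9% (56.5 to 98.0%), against 96.7%, the exception being the Hoxc9 start region. The gap to the list was thus widest in deciles 7 to 9. In decile 8, 0 of 8 regions overlapped, against 54.0% of the list. With the E10.5 list cut down by signal to the length of the E11.5 list, 43.3% of the 30 regions left in the interval overlapped, against 68.9% of that shortened list. Cut down by −log10 p the shares were 57.1% of 21 and 70.2%. By signal per bp they were 63.2% (12 of 19) and 67.5%, a gap of about 1 region.

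**Figure D4:**
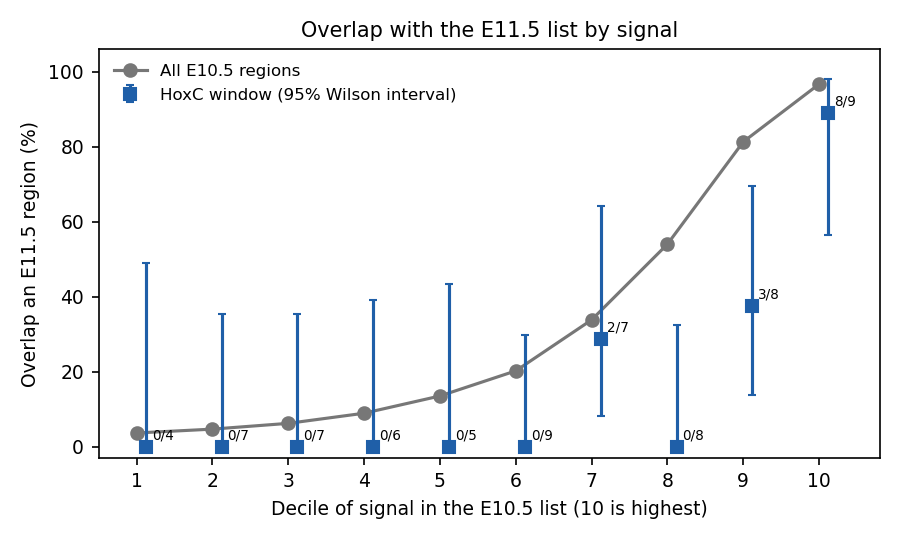
Share of E10.5 regions overlapping an E11.5 region (vertical, percent) by decile of signal in the E10.5 list (horizontal), for all regions (grey) and for the HoxC interval (blue, with counts and 95% Wilson intervals). The HoxC points lie below the grey line in each decile, and the interval lies wholly below it in deciles 8 and 9.

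The 5 strongest E10.5 regions of the interval were those at the Hoxc5 start, at the Hoxc6 start, between Hoxc11 and Hoxc10, at the Hoxc10 start and in the second part of Hoxc9. The strongest at E11.5 began 766 bp behind the Hoxc6 start. The next 4 lay at the Hoxc5 start, between Hoxc11 and Hoxc10, at the Hoxc10 start and, in the flank, in the noncoding gene Gm28876. The first 4 places were thus held by the same 4 loci in both lists, with Hoxc5 and Hoxc6 in opposite order. At those 4 loci the E10.5 signals lay between 8896 and 11177 and the E11.5 signals between 1362 and 1880. The Gm28876 region had close bounds in both lists, at 103101880 to 103102976 with a signal of 1544 at E10.5 and at 103101908 to 103102844 with a signal of 1118 at E11.5, and the summits were 0 bp apart. A second flank region with close bounds lay at 103085737 to 103086508 and 103085783 to 103086498, with signals of 1480 and 439.

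Of the E10.5 flank regions behind Hoxc4 the strongest lay between genes at 103114635 to 103116706, with a signal of 6540 (rank 5974). The E11.5 region inside it, at 103115268 to 103115790, had a signal of 283. Another, at 103074562 to 103075722 with a signal of 3562, overlapped none. They lie 194 kb and 153 kb from the Hoxc13 start. Outside the cluster no protein-coding gene has its start in the interval.

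The spaces between the genes differed as well. At E10.5 regions covered 85.3% of the space from Hoxc10 to Hoxc9, 82.4% of that from Hoxc11 to Hoxc10 and 99.6% of the short space from Hoxc6 to Hoxc5. The space from Hoxc13 to Hoxc12 was covered to 26.2% by 4 regions, that from Hoxc9 to Hoxc8 to 60.4% by 5, and that from Hoxc8 to Hoxc6 to 40.2% by 2. In the E11.5 list the spaces from Hoxc11 to Hoxc10 (17.0%), Hoxc6 to Hoxc5 (7.86%) and Hoxc9 to Hoxc8 (3.69%) held regions, and the other 5 held none.

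The noncoding genes of the interval showed where regions meet starts other than those of Hox genes. Mir196a-2 (102973350 to 102973434, plus strand), between Hoxc10 and Hoxc9, encodes miR-196a, which is known to repress Hox messages such as that of Hoxc8. It lay in an E10.5 region at 102971935 to 102974302 (signal 3069) and was 5986 bp from the nearest E11.5 region. Mir615 (103014910 to 103015001, plus strand) lay in the strong Hoxc5 region in both lists. The mature sequences are shown because these RNAs come from the cluster itself, with the seed (bases 2 to 8) in capitals, from the RefSeq table of build GRCm38.p6, which has the mm10 coordinates:
miR-196a-5p: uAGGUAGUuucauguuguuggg
miR-196a-2-3p: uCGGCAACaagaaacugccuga
miR-615-5p: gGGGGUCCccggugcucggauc
miR-615-3p: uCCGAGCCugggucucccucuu
The 4 seeds differ from each other, and the miR-196a-5p sequence is also encoded by Mir196a-1 on chromosome 11 at 96265187 to 96265208.

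Gm36878 (102980477 to 102981063), a long noncoding RNA gene, lies inside Hoxc9 on the opposite strand, within the wider Hoxc9 region of the E10.5 list. The E11.5 region of Hoxc9 lay 372 bp from its start. D930007P13Rik (103123070 to 103146828), also noncoding, reaches into the interval with its end. Within the interval it held E10.5 regions at 103127690 to 103129450 and 103133681 to 103135987, with signals of 3059 and 3128, and no E11.5 region. Its start, at 103146828 outside the interval, lay in a region in both lists, with signals of 2022 at E10.5 and 223 at E11.5.

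Gm30528 (103026807 to 103060555), a long noncoding RNA gene, runs opposite to Hoxc4 and overlaps it. Its outer start lay in an E10.5 region at 103060102 to 103061798 (signal 3330), and the E11.5 region inside it, at 103060720 to 103061121, had a signal of 290. The window of that start (chr15:103060506-103060805, minus strand, GRCm38.p6) is shown because the E10.5 region covered all 300 bases and the E11.5 region 86, those farthest before the start:
Gm30528: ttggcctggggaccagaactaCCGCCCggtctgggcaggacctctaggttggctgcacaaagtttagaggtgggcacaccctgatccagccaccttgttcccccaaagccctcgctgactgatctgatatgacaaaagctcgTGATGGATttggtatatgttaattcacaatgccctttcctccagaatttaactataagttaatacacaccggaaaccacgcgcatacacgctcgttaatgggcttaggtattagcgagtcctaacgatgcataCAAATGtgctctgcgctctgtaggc
Capitals mark an SP box on the other strand, a Pbx-Hox motif and an E box. None of the Hoxc4, Gm29905 and Gm30528 windows had a TATA box (TATAAA, 13.6% of windows) or a CTCF core (1.04%), and no matches overlapped each other in the stretches shown. The 3 windows held 9, 12 and 12 CpG dinucleotides, against a median of 7 in all windows. Other windows of the interval went both ways, with 13 for Gm36878, 3 in each window of the inner Gm30528 starts, and 2 and 1 for Gm28876.

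The other 3 Hox clusters give a scale for these values. From 1 kb outside the first to 1 kb outside the last gene, E10.5 regions covered 70.2% of HoxA, 56.8% of HoxC, 51.8% of HoxD and 18.1% of HoxB. The E11.5 regions covered 13.8% of HoxA, 12.1% of HoxD, 7.64% of HoxC and 0.803% of HoxB. HoxC came before HoxD at E10.5 and after it at E11.5. The covered length at E10.5 was 7.42 times that at E11.5 in HoxC, 4.27 times in HoxD, 5.06 times in HoxA and 22.6 times in HoxB. Over all regions it was 2.88 times. Over all deposited regions HoxC had 4.08 E10.5 regions per 10 kb, against 3.26 in HoxA, 2.93 in HoxD and 2.33 in HoxB. HoxA led with −log10 p of at least 5 (2.51 against 2.46 in HoxC) and with the list cut down by signal (2.05 against 1.95). Cut down by −log10 p, HoxC (1.27) came behind both HoxA (1.77) and HoxD (1.42). The same held by signal per bp, with 1.19 in HoxC, 1.58 in HoxA and 1.31 in HoxD. The HoxC median region width of 978 bp lay between the 654 bp of HoxB and the 1141 and 1707 bp of HoxD and HoxA. With 1 list per stage these differences between clusters were not tested.

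**Figure D5:**
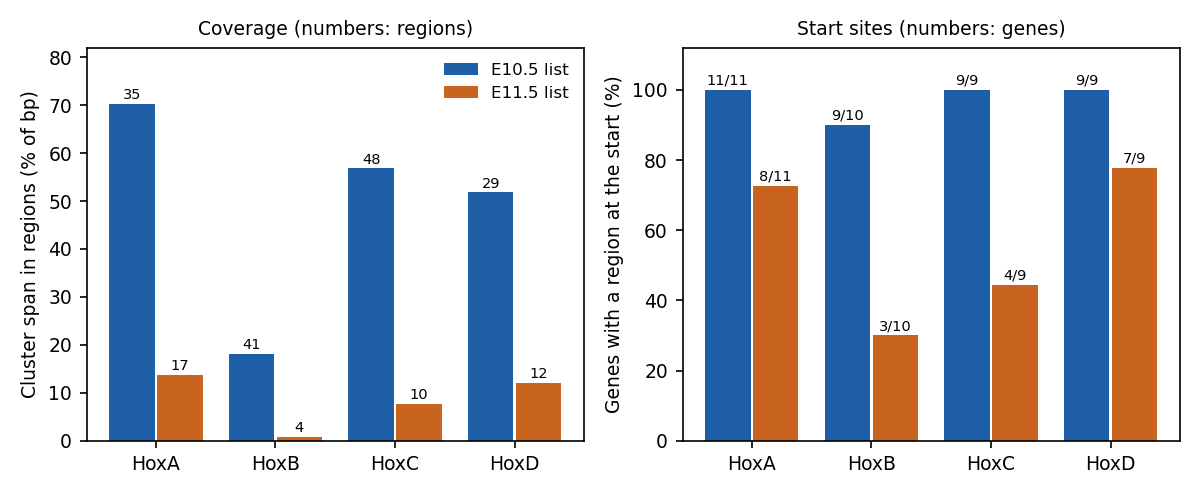
Share of each Hox cluster in regions (left, percent of bp, number of regions above the bars) and share of its genes with a region within 1 kb of the start site (right, percent, counts above the bars), for both lists. HoxC is covered to 56.8% in the E10.5 list and to 7.64% in the E11.5 list, and 9 and then 4 of its 9 genes have a region at the start.

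In HoxC 18.8% of the E10.5 regions (10.2 to 31.9%) met an E11.5 region, against 37.1% (23.2 to 53.7%) in HoxA, 34.5% (19.9 to 52.7%) in HoxD and 9.76% (3.86 to 22.5%) in HoxB, and these intervals overlap between HoxC and each of the others. At E11.5 every region of the 4 clusters overlapped an E10.5 region. The number of genes with a region at the start was 4 of 9 in HoxC, 8 of 11 in HoxA, 7 of 9 in HoxD and 3 of 10 in HoxB at E11.5. At E10.5 it was 9 of 9, 11 of 11, 9 of 9 and 9 of 10. Genes without one at E11.5 were Hoxa2, Hoxa5 and Hoxa6, Hoxd4 and Hoxd11, and Hoxb1, Hoxb2, Hoxb3, Hoxb6, Hoxb8, Hoxb9 and Hoxb13. Hoxb6 had none at E10.5 either.

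By paralog group, the copies that stand at the same place in each cluster, group 10 had a start region in both lists in HoxA, HoxC and HoxD. In group 13 HoxA, HoxC and HoxD had one in both lists and HoxB at E10.5 only. In group 5 Hoxc5 and Hoxb5 had one in both lists and Hoxa5 at E10.5 only. In group 6 Hoxc6 had one in both lists, Hoxa6 at E10.5 only and Hoxb6 in neither. In group 9 Hoxa9 and Hoxd9 had one in both lists, and Hoxc9 and Hoxb9 at E10.5 only. In group 12 Hoxd12 had one in both lists and Hoxc12 at E10.5 only. In group 8 Hoxd8 had one in both lists, and Hoxc8 and Hoxb8 at E10.5 only. In group 4 Hoxa4 and Hoxb4 had one in both lists, and Hoxc4 and Hoxd4 at E10.5 only. In group 11 the start regions of Hoxc11 and Hoxd11 were at E10.5 only and that of Hoxa11 was in both.

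Genes that act upstream of Hox genes or hold them silent were read the same way, against the 66.2% of all protein-coding genes with a start region at E10.5 and the 59.9% at E11.5. With lists this short, the counts describe the named genes only. All 6 Polycomb genes (Ezh2, Eed, Suz12, Rnf2, Bmi1 and Cbx2) had a start region in both lists. Of the hindlimb regulators Pitx1, Isl1 and Tbx4, which drive hindlimb identity and outgrowth, Pitx1 lacked one at E11.5. Of the upstream genes Cdx1, Cdx2, Cdx4 and Gdf11, Cdx4 lacked one in both lists and Cdx1 at E11.5.

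Markers of the tissue were read against the same shares of 66.2% and 59.9%. All 4 limb mesenchyme markers (Prrx1, Prrx2, Twist1 and Msx1) had a start region in both lists. Of 4 ectoderm markers 3 had one at E10.5 (not Trp63) and 2 at E11.5 (neither Trp63 nor Tfap2a). Of 4 neural tube markers (Sox1, Olig2, Neurog1 and Pax6), all had one in the E10.5 list and 3 (not Pax6) in the E11.5 list. Start regions thus did not separate limb from neural tube, and the labelled tissue could not be checked this way. The part of neural tissue in the HoxC regions was not tested.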

How the data were processed

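ATAC-seq was made from 4 samples, 2 per stage, grouped by their titles. The 2 narrowPeak lists each join both replicates of a stage, on build mm10 per the file headers. The submitters' processing notes name cutadapt, Bowtie2, SAMtools, deepTools and Genrich. Their settings and versions, any Tn5 shift and the way replicates were joined are not given in the sources used here. The authors' signal and −log10 p are deposited per peak. The deposited score follows from signal and width in 100% of peaks, the deposited q-values are -1 in 100% of peaks, and neither was used.

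Peaks on chromosomes 1 to 19, X and Y were read with Python 3.11.15, numpy 2.4.6, pandas 2.3.3 and scipy 1.17.1, and the counting was tested on simulated data. Each peak is called a region (neighbours were at least 101 bp apart), shared from 1 bp of overlap. Gene bounds came from the RefSeq table of GRCm38.p6. Strand came from RefSeq sequence tables for 17491 protein-coding genes (Hoxc4 among the members) and by symbol from GENCODE M1 for 4041 (8 members). The start is the outer end by strand. Exons and introns were not used. Coordinates are 1-based.

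The members, gene lists and named items were chosen with earlier results of these data known. All HoxC genes were named, with the regions over them, the 5 strongest per list, noncoding genes with a region, and other genes lacking a start region. Further regions, and other genes, were named after values were seen. The closing section gives the alternatives. A list of Hox cofactors is not reported here.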

Additional observations from a re-analysis of the deposited data

How the results depend on the processing

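No paired analysis was possible because the replicates of a stage went into 1 deposited list, and for the same reason none was left out in turn. The depth behind the lists is unknown, so fewer E11.5 regions and shallower E11.5 libraries cannot be told apart. Of 132 values under alternatives, 16 were set aside, since the E11.5 list was left whole or no regions lay close enough to join. Of the other 116, 63 stayed within 1.5 times the count, or within the 95% interval of the share, and 53 did not. Some of the 63 were also bound to stay. Examples are the E11.5 counts of 0 at Hoxc12 and Hoxc8 with −log10 p of at least 5, and the 9 genes with E10.5 start regions at 2 kb. The 63 are therefore no measure of stability. Matching by signal per bp, start regions matched by −log10 p, the inner Hoxc4 start and the overlap within the cluster alone were chosen after seeing the data.

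With −log10 p of at least 5 the interval held 39 E10.5 and 5 E11.5 regions. With the E10.5 list cut down to as many regions as the E11.5 list it held 30 (by signal), 21 (by −log10 p) or 19 (by signal per bp) at E10.5, fewer by construction. The E10.5 share overlapping was then 43.3%, 57.1% and 63.2%, against 68.9%, 70.2% and 67.5% of the whole reduced lists, and HoxC genes with a start region numbered 7, 5 and 6. It was 4.29% with reciprocal overlap of 50%, 7.14% with summits within 100 bp and 8.57% with 200 bp around summits, against 20.3%, 26.6% and 28.7% of all E10.5 regions. The E11.5 share was 21.4%, 35.7% and 42.9%, against 53.8%, 70.6% and 76.2% of all. In place of 9 E10.5 regions in the top 10% by signal, there was 1 by signal per bp, and there were 4 by −log10 p.

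With −log10 p of at least 5, the E10.5 regions numbered 29 in HoxC, 27 in HoxA, 19 in HoxB and 18 in HoxD. The E11.5 regions numbered 4 in HoxC, 6 in HoxA, 6 in HoxD and 0 in HoxB, and genes with an E11.5 start region 5 in HoxA, 4 in HoxD and 0 in HoxB. HoxC had 3 (Hoxc5, Hoxc6 and Hoxc10). At matched number by signal the E10.5 regions numbered 23 in HoxC, 22 in HoxA, 17 in HoxD and 13 in HoxB, with 4 HoxB genes and 7 HoxC genes (not Hoxc8 and Hoxc12) having an E10.5 start region. The cause of these shifts beyond the fewer regions was not tested. Per gene, 21 of 54 counts moved, 12 of them when regions were given to the nearest start, which placed 13 E10.5 regions at Hoxc4.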
